A study of Mus musculus with 10 samples.

Results

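Ribosomal protein genes were examined as a set of strong, constitutively active promoters in chromatin immunoprecipitation followed by sequencing (ChIP-seq) of SMAD2/3 and HEB in mouse cells. Members were the genes named Rpl or Rps with a number and an optional letter suffix, without the Rps6k kinases and without pseudogene names. The rule gave 81 genes of 21900 protein-coding genes in the RefSeq table used as the denominator, 49 for the large subunit and 32 for the small subunit. Of these, 46 had a region in at least 1 of the 6 deposited region lists, 29 of the large and 17 of the small subunit, and 35 had none. The 46 were 56.8% of the members (interval 45.3 to 67.8%), and 47.0% of all protein-coding genes had a region in at least 1 list. The rule used names alone and no measured value.

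The cells were CGR8, a mouse embryonic stem cell (ESC) line grown without feeder cells in serum with LIF, and endoderm made from it with 100 ng/ml Activin A, a ligand that signals through SMAD2 and SMAD3. The groups were ESC SMAD2/3, ESC HEB, ESC+SB HEB, Endoderm SMAD2/3, Endoderm HEB and Endoderm+SB HEB. SB stands for SB431542, an inhibitor of the type I receptor kinases for TGF-beta, activin and Nodal, given at 10 µM for 24 hours to ESCs and for 48 hours to differentiating cells. The ligand was present from day 2 and chromatin was collected on day 4, and the labels leave room for another reading of when SB was given relative to Activin A. The Endoderm+SB cells carry the endoderm name here only because they followed that protocol. HEB is an E protein, the product of the Tcf12 gene. No SMAD2/3 library of SB-treated cells was among the samples. All cells came from 1 line, no genotype was varied, and 4 input libraries entered only as the background columns of the lists.

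Each group was 1 ChIP library, so no spread between replicates was measurable, no test was made across samples and no p-value was computed. Differences between lists are therefore differences between libraries. Binomial intervals (exact Clopper-Pearson, 95%) and intervals of medians cover counting error only. The lists held 4111 (ESC SMAD2/3) to 18981 (Endoderm HEB) regions, with 933126 to 5051930 ChIP tags inside regions and a median of 155 to 184 ChIP tags and 15 to 31 input tags a region. The lists hold no expression values, so the cell labels were not checked against marker transcripts. In such bulk chromatin, binding in fewer cells and weaker binding per cell cannot be told apart.

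Ribosomal proteins assemble with ribosomal RNA in the nucleolus into the large and small subunits, which join to translate mRNA. Their genes are among the most highly transcribed by RNA polymerase II in dividing cells, from short promoters with sharply placed start sites in open chromatin. Their mRNAs start with a C followed by a run of pyrimidines, the terminal oligopyrimidine tract, through which mTOR signalling controls their translation. SMAD2/3 carries activin and Nodal signals to DNA with partner factors, and E proteins such as HEB bind the E-box, whose letters are CANNTG.

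The promoters of the genes with a region in all 6 lists, Rpl18, Rpl5 and Rpl9, are printed so that the annotated promoter sequence of the most often listed genes can be read. Each runs from 250 bases before the annotated start to 30 bases after it, 5′ to 3′ on the gene's strand, from RefSeq on GRCm38.p6, with capitals marking a match to CANNTG. The windows are chr7:45717821-45718100 (plus strand), chr5:107900278-107900557 (plus strand) and chr5:65391402-65391681 (minus strand).
Rpl18: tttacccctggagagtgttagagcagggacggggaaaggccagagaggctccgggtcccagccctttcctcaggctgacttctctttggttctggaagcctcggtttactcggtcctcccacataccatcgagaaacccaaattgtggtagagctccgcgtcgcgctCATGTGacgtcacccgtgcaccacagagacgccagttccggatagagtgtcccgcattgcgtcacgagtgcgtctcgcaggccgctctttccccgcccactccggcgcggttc
Rpl5: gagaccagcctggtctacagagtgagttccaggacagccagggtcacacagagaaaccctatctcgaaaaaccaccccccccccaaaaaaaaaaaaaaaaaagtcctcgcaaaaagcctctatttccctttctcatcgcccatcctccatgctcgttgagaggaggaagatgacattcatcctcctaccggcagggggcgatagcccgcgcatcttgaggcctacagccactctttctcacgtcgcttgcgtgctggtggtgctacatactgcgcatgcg
Rpl9: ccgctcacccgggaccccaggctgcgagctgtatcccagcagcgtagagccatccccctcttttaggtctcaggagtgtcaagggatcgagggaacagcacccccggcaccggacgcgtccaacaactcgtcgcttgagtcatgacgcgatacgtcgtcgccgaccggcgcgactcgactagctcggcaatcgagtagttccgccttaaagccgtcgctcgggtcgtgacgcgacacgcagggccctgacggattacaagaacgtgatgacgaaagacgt
Rpl18 held 1 match to CANNTG, 83 bases before the start, and Rpl5 and Rpl9 held 0.

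The promoters of Rpl10, Rpl24 and Rpl27a, which had a region in no list, are printed in the same way for contrast. The windows are chrX:74270566-74270845 (plus strand), chr16:55966025-55966304 (plus strand) and chr7:109518945-109519224 (plus strand).
Rpl10: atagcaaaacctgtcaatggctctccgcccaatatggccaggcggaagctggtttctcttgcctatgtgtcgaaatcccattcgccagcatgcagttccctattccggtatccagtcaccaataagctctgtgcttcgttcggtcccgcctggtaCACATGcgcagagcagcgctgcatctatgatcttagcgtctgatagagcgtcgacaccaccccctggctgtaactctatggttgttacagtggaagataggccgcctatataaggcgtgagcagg
Rpl24: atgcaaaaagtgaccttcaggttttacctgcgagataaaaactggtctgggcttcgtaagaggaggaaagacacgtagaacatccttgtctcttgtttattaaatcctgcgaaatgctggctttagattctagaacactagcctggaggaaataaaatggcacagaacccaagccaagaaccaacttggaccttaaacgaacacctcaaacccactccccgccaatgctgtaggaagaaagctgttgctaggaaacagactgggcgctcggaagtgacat
Rpl27a: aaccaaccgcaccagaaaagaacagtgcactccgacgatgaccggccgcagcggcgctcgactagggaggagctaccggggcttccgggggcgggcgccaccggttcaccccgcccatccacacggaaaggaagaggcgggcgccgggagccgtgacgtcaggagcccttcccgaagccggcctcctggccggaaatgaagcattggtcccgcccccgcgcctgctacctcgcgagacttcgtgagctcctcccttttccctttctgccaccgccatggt
Rpl10 held 1 match to CANNTG, 95 bases before the start, and the other two held 0. An E-box match was thus present or absent among both the listed and the unlisted genes shown. The region lists are on build mm9, so these coordinates are not set against those of the regions.

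Over the 300-base windows RefSeq gave for 62 of the 81 members, both strands were searched for each motif except the pyrimidine run. Each gene counted once, as holding a motif if any of its windows did. CANNTG was in 54.8% of these members and in 72.1% of all 17492 genes with a window. Among the 33 members with a region within 1000 bp of the 5′ end in any list, 14 (42.4%) held it, against 20 of 29 (69.0%) of the members without one. CAGCTG and CAGGTG, forms of CANNTG that E proteins bind, were in 6.45% and 12.9% of members and in 17.4% and 22.1% of all genes with a window. CAGAC, the short SMAD element, was in 46.8% of members and 52.5% of all genes with a window. GTCTAGAC, the palindromic SMAD element, which does not contain CAGAC, was in 0 members and in 0.263% of all genes with a window. GGCGC, another sequence SMADs bind, was in 51.6% and 49.7%.

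Elements of other factors were searched in the same windows. CCGGAAG, an ETS factor site, was in 38.7% of members and 12.9% of all genes with a window. CCGCCC, the GC box, whose matches can overlap those of GGCGC in part, was in 56.5% and 49.2%, and AAGATGGC, the YY1 element, was in 8.06% and 3.57%. A run of at least 8 pyrimidines beginning with C was searched on the gene's strand within 50 bases of the start. It was in 83.9% of members and 32.7% of all genes with a window. The median GC content, averaged over the windows of a gene, was 56.6% in members and 56.3% in all genes with a window. It was 59.3% in the members with a promoter region and 53.7% in those without. A match is a description of letters and does not mark a bound site.

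HEB regions were listed at up to 43.2% of ribosomal protein genes and SMAD2/3 regions at up to 21.0%. In ESC SMAD2/3, 4 of 81 members had a region (4.94%, interval 1.36 to 12.2%), and the background over all protein-coding genes was 7.32%. In ESC HEB, 19 had one (23.5%, 14.8 to 34.2%), beside a background of 24.1%. In ESC+SB HEB, 35 had one (43.2%, 32.2 to 54.7%), beside 29.9%. These shares put the members near the background in both untreated ESC lists and above it in the ESC+SB list.

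In Endoderm SMAD2/3, 17 members had a region (21.0%, 12.7 to 31.5%), beside a background of 23.1%. Endoderm HEB listed 24 (29.6%, 20.0 to 40.8%), beside 24.9%. Endoderm+SB HEB listed 28 (34.6%, 24.3 to 46.0%), beside 23.0%. The background lay inside the members' interval in both of the lists without SB and just below it in the list with SB.

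Counted only where the region lay within 1000 bp of the gene's 5′ end, here called a promoter region, the members stood further from the background. The counts were 4 (4.94%, interval 1.36 to 12.2%) in ESC SMAD2/3, where 2.76% of all genes had a promoter region, and 13 (16.0%, 8.83 to 25.9%) in ESC HEB, where 12.6% did. ESC+SB HEB had 33 (40.7%, 29.9 to 52.2%) beside a background of 20.7%. Endoderm SMAD2/3 had 16 (19.8%, 11.7 to 30.1%) beside 15.4%. Endoderm HEB had 22 (27.2%, 17.9 to 38.2%) beside 12.3%, and Endoderm+SB HEB had 27 (33.3%, 23.2 to 44.7%) beside 16.5%. The background was outside the members' interval in the ESC+SB, Endoderm and Endoderm+SB HEB lists and inside it in the remaining lists.

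The members' place beside the background depended on how many regions of a list were kept. Among the upper 50% of regions by height, the shares of members and of all genes with a region were 14.8% and 14.8% in ESC+SB HEB and 12.3% and 10.2% in Endoderm+SB HEB. Without SB the members were below all genes, at 1.23% and 3.44% in ESC SMAD2/3, 4.94% and 12.6% in ESC HEB, 4.94% and 11.5% in Endoderm SMAD2/3 and 2.47% and 13% in Endoderm HEB. For promoter regions in the upper 50%, the shares of members and of all genes were 13.6% and 7.95% in ESC+SB HEB and 12.3% and 5.47% in Endoderm+SB HEB, where members stayed above. They were 1.23% and 3.95% in Endoderm HEB, where members turned below, 1.23% and 0.977% in ESC SMAD2/3, 3.7% and 4.68% in ESC HEB and 4.94% and 5.94% in Endoderm SMAD2/3. With each list held to its 4111 highest regions, ESC HEB kept 0 members, ESC+SB HEB 2 (Rpl18 and Rpl5), Endoderm SMAD2/3 3 (Rpl18, Rpl37 and Rpl9), Endoderm HEB 1 (Rpl18) and Endoderm+SB HEB 5 (Rpl18, Rpl22, Rpl5, Rpl9 and Rps19).

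**Figure D1:**
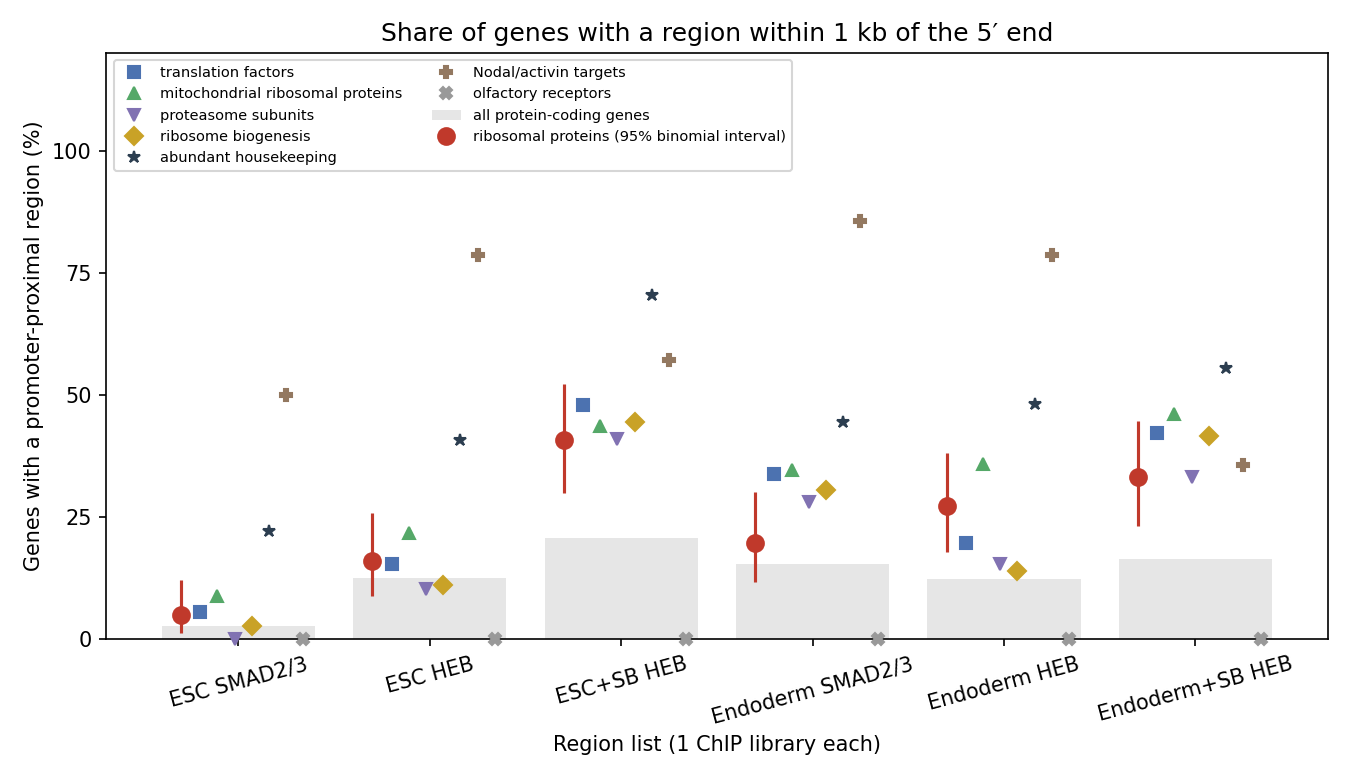
Share of genes, in percent, with a region within 1 kb of the 5′ end in each of the 6 region lists; grey bars are all 21900 protein-coding genes, red circles the 81 ribosomal protein genes with 95% binomial intervals, and the other symbols the comparison gene lists. The red circles run from 4.94% in ESC SMAD2/3 to 40.7% in ESC+SB HEB.

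Other lists of widely expressed genes gave shares in the same range, so the shares are not called particular to ribosomal proteins. In ESC+SB HEB, promoter regions were at 43.6% of 78 mitochondrial ribosomal protein genes, 47.9% of 71 translation factors, 41.0% of 39 proteasome subunits, 44.4% of 36 ribosome biogenesis genes and 70.4% of 27 abundant housekeeping genes. In Endoderm HEB the same lists were at 35.9%, 19.7%, 15.4%, 13.9% and 48.1%, beside 27.2% for the members. In Endoderm SMAD2/3 they were at 34.6%, 33.8%, 28.2%, 30.6% and 44.4%, all above the 19.8% of the members. Of 1110 olfactory receptor genes, which are typically silent outside the olfactory epithelium, 1 had a promoter region in Endoderm HEB and 0 in the other lists, where the binomial interval reached 0.332%.

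Nodal/activin target genes gave another picture. Of 14 such genes, 12 (85.7%) had a promoter region in Endoderm SMAD2/3 and 11 (78.6%) in Endoderm HEB. The count was 5 (35.7%) in Endoderm+SB HEB, where 27 of the 81 ribosomal protein genes (33.3%) had one. For ESC HEB and ESC+SB HEB the Nodal/activin counts were 11 and 8, and the ribosomal protein counts 13 and 33. Of the ribosomal proteins whose names fall outside the rule (such as Rplp0, Rplp1, Rplp2 and Rpsa), 3 of 6 had a promoter region in ESC+SB HEB and 2 of 6 in each endoderm list.

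Large subunit genes were listed more often than small subunit genes in 5 lists by share. In ESC SMAD2/3 the counts were 4 of 49 large and 0 of 32 small subunit genes, and the interval of the latter reached 10.9%. In ESC HEB they were 15 (30.6%, interval 18.3 to 45.4%) and 4 (12.5%, 3.51 to 29.0%). In ESC+SB HEB they were 23 and 12. In Endoderm SMAD2/3 they were 11 and 6, in Endoderm HEB 13 and 11, and in Endoderm+SB HEB 18 and 10. The intervals of the subunits overlapped in every list, and Endoderm HEB gave the small subunit the higher share.

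By list, 15 members were in exactly 1 list, 5 in 2, 11 in 3, 9 in 4, 3 in 5 and 3 in all 6, which were 18.5%, 6.17%, 13.6%, 11.1%, 3.7% and 3.7% of the 81. Over all protein-coding genes the shares were 12.7%, 10.4%, 8.47%, 6.74%, 5.84% and 2.88%. The members in 5 lists were Rpl22, Rpl23 and Rpl27. Those in 4 included Rpl10a, Rpl19, Rpl28, Rpl36, Rps3a, Rps15 and Rps21. The members in none included core subunits such as Rpl6, Rpl7, Rpl7a, Rps2, Rps3 and Rps9, and also Rpl10, Rpl17, Rpl23a, Rpl24, Rpl27a, Rpl29, Rpl30, Rpl31, Rpl32, Rpl35, Rpl36a, Rpl39, Rps4x, Rps12, Rps18, Rps23, Rps24, Rps26, Rps27, Rps27a, Rps28 and Rps29. Other members in none were Rpl3l, Rpl10l, Rpl32l, Rpl37rt, Rpl39l and Rps27rt, whose suffix l or rt marks a paralogue or retrotransposed copy. Ribosomal protein genes have many near-identical processed copies in the genome, and tags that match several places may have been dropped or split, and the sources used here do not say which. No region at a member therefore does not show that the factor is absent there.

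**Figure D2:**
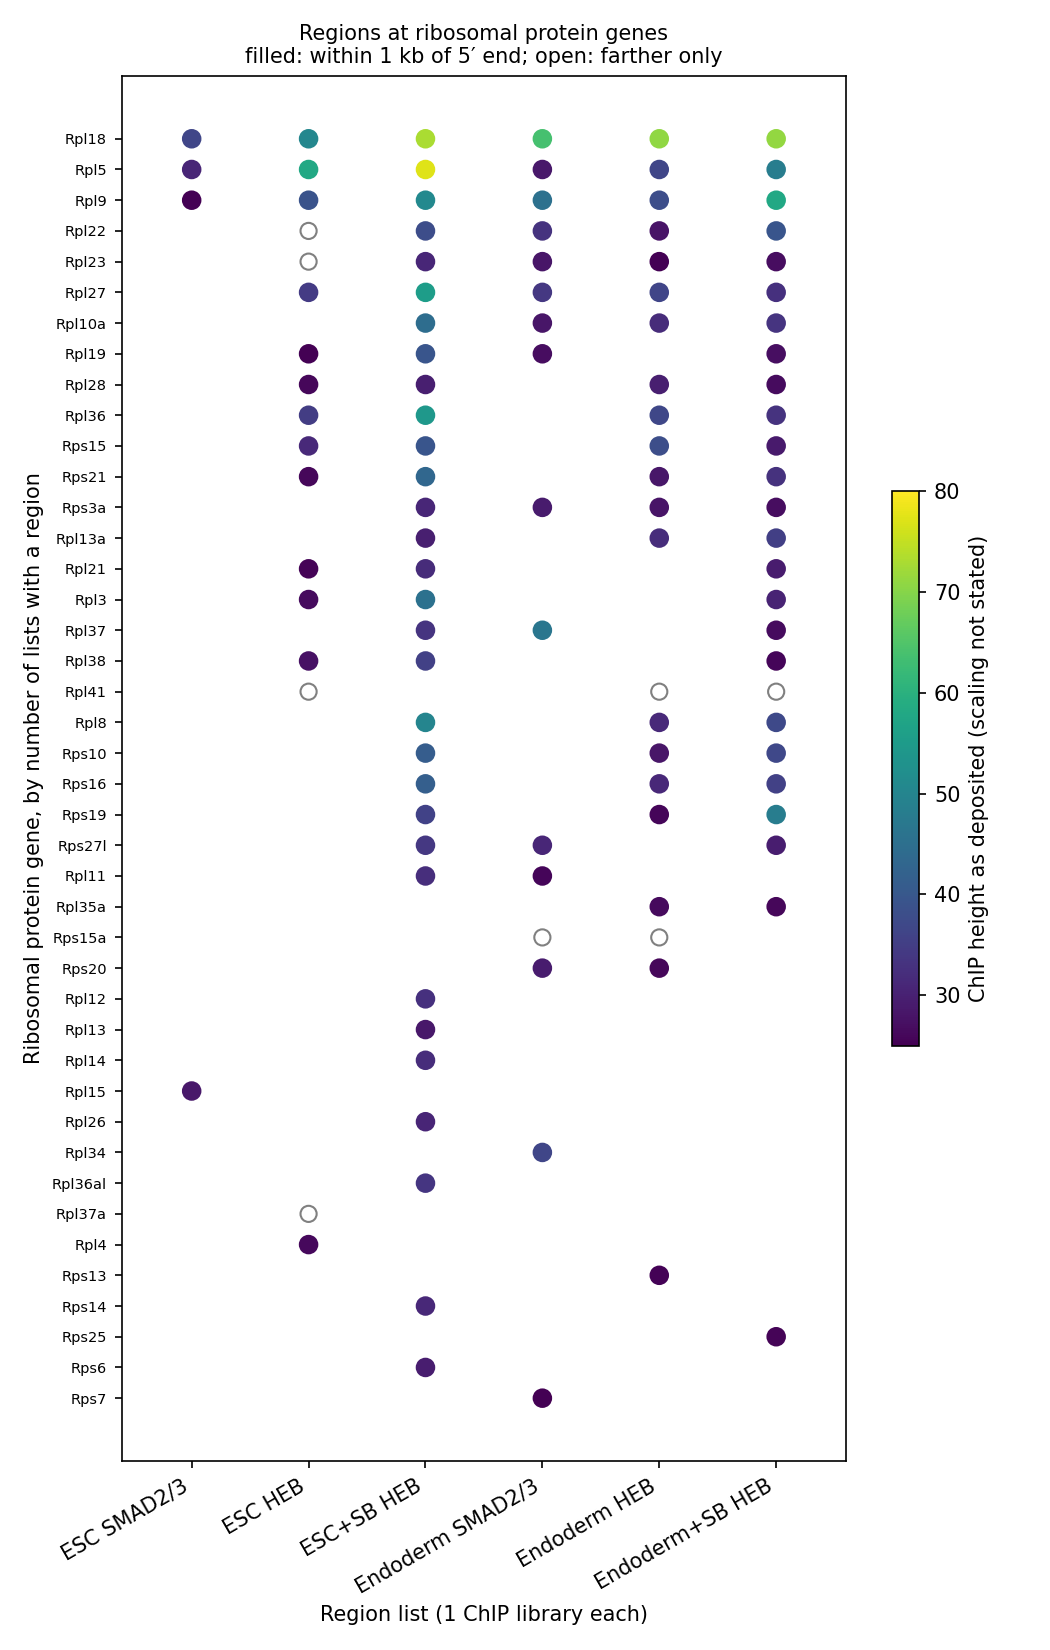
Members (rows) by region list (columns), for most of the 46 ribosomal protein genes with a region in any list. Filled circles are promoter regions coloured by ChIP height (scale from 25 to 80, the deposited signal), and open circles are regions over 1 kb from the 5′ end; Rpl18, Rpl5 and Rpl9 have a filled circle in all 6 columns.

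Member regions lay on the 5′ end itself. The region covered the annotated 5′ end in 4 of 4 cases in ESC SMAD2/3, 13 of 20 (65.0%) in ESC HEB, 33 of 36 (91.7%) in ESC+SB HEB, 15 of 17 (88.2%) in Endoderm SMAD2/3, 22 of 25 (88.0%) in Endoderm HEB and 27 of 28 (96.4%) in Endoderm+SB HEB. Among all regions assigned to a gene, the share covering a 5′ end was 18.0%, 20.4%, 35.8%, 39.8%, 19.6% and 46.0% in the same order. Rpl34, a large subunit gene, had the only member promoter region that did not cover the 5′ end, 550 bp from it in Endoderm SMAD2/3 with a height of 36.4.

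Summits at the same gene lay close together across lists, for members and for other genes. Over the 24 members with a promoter region in at least 3 lists, the distance between the lowest and the highest summit ranged from 3 to 420 bp with a median of 23 bp, and 21 were within 100 bp. Over 2841 other genes with promoter regions in as many lists, the median was 45 bp and 62.8% were within 100 bp. The range was 3 bp at Rpl8, 11 bp at Rpl5, 20 bp at Rpl18 and 44 bp at Rpl9. The 3 members with wider ranges were Rps21 at 210 bp, Rpl13a at 306 bp and Rpl10a at 420 bp.

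Rpl18, which encodes a large subunit protein, had ChIP heights of 36.5 in ESC SMAD2/3, 50.5 in ESC HEB, 73.0 in ESC+SB HEB, 63.7 in Endoderm SMAD2/3, 70.8 in Endoderm HEB and 71.0 in Endoderm+SB HEB. Height is the deposited peak signal, with no stated scaling, so each value was also ranked in its own list. Rpl18 stood at percentiles 56.0, 69.8, 84.8, 85.6, 80.5 and 89.3 of all regions in that order. It was the highest member promoter region in 4 of the 6 lists and second to Rpl5 in ESC HEB and ESC+SB HEB. The ESC HEB region was chr7:52973059-52973635 on mm9, and regions at this promoter also held the 5′ end of Sphk2, which encodes a sphingosine kinase.

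Rpl5 encodes the large subunit protein that enters the 5S particle and, with Rpl11, restrains Mdm2 when ribosome assembly is disturbed. Its heights were 30.7 in ESC SMAD2/3, 58.0 in ESC HEB, 77.4 in ESC+SB HEB, 28.5 in Endoderm SMAD2/3, 36.6 in Endoderm HEB and 48.0 in Endoderm+SB HEB. By height, which has no stated scaling, the ESC values were thus the higher ones for both HEB pairs and for SMAD2/3. The height percentiles went the same way. Tag enrichment at Rpl5 went the other way, at 2.97 in ESC SMAD2/3 and 6.5 in Endoderm SMAD2/3. It was 5.5 in ESC HEB and 8.07 in Endoderm HEB, and 3.67 in ESC+SB HEB and 5.36 in Endoderm+SB HEB. The Rpl5 region in ESC HEB was chr5:108329402-108329707 on mm9. In ESC+SB HEB, Rpl5 also had the densest input of the member promoter regions. It had 152 tags per kb there, beside a median of 58.0 over the other promoter regions of that list. In Endoderm SMAD2/3 its input was 34.5 per kb, beside a median of 36.5.

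Rpl9, a large subunit gene that shares its promoter region with the 5′ end of Lias (lipoic acid synthetase), had heights of 25.0, 39.0, 50.9, 45.2, 38.0 and 58.0 in the same list order. The first value lay at the lower end of that list, at percentile 0.0973. Its ESC HEB region was chr5:65782566-65782905 on mm9. Among these genes, Rpl9 was highest in Endoderm+SB HEB, Rpl5 in ESC+SB HEB and Rpl18 in the same ESC+SB HEB list by height, though by percentile Rpl18 was highest in Endoderm+SB HEB.

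Regions at ribosomal protein promoters were mostly low in their lists. Of the member promoter regions, 1 of 4, 3 of 13, 11 of 33, 4 of 16, 1 of 22 and 10 of 27 were in the upper 50% of their list by height in ESC SMAD2/3, ESC HEB, ESC+SB HEB, Endoderm SMAD2/3, Endoderm HEB and Endoderm+SB HEB, beside 37.1%, 38.0%, 38.7%, 38.4%, 32.8% and 33.9% of the other promoter regions. The median height of member promoter regions was 29.6 in ESC SMAD2/3 beside 30.1 for the other promoter regions, 27.5 (interval of the median 25.9 to 39.0) beside 33.3 in ESC HEB and 35.9 beside 36.5 in ESC+SB HEB. It was 29.0 beside 31.7 in Endoderm SMAD2/3, 30.4 beside 32.7 in Endoderm HEB and 32.7 beside 31.1 in Endoderm+SB HEB. The ratio of medians was from 0.82 to 1.05. Many members sat close to the lowest height listed: within 1.5 times of it were 4 of 4, 10 of 13, 24 of 33, 13 of 16, 19 of 22 and 22 of 27, beside 71.1%, 61.8%, 66.2%, 71.1%, 63.3% and 75.2% of the other promoter regions.

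Input tags were denser at member promoters than at other promoter regions in every list. Per kb of region, the member and other medians were 80.4 and 56.3 in ESC SMAD2/3, 79.4 and 47.3 in ESC HEB, and 78.9 and 58.0 in ESC+SB HEB. They were 51.6 and 36.5 in Endoderm SMAD2/3, 49.4 and 36.7 in Endoderm HEB, and 43.8 and 37.5 in Endoderm+SB HEB. The ratio ran from 1.17 to 1.68. The numbers of members above the median of the others were 4 of 4, 12 of 13, 32 of 33, 13 of 16, 21 of 22 and 21 of 27. Member regions were narrower in every list but ESC SMAD2/3, with median widths of 387 and 631 bp in ESC HEB and 464 and 708 bp in Endoderm SMAD2/3. Input tags not divided by width had median ratios of 0.87 and 1.0 in these lists, and up to 1.41 in ESC SMAD2/3. Input height, also not divided by width, gave ratios from 1.43 to 1.85.

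Tag enrichment, the deposited ratio of ChIP to input tags, was correspondingly lower at members. The member and other medians were 3.12 and 5.08, 4.29 and 6.13, 3.41 and 4.7, 5.34 and 7.16, 5.13 and 7.57, and 5.36 and 6.55 in the list order above. Members above the median of the others numbered 0 of 4, 0 of 13, 3 of 33, 3 of 16, 1 of 22 and 8 of 27. ChIP tags per kb at members were 0.87 to 1.06 times those of the other promoter regions. Input at members without a region was not measured here.

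**Figure D3:**
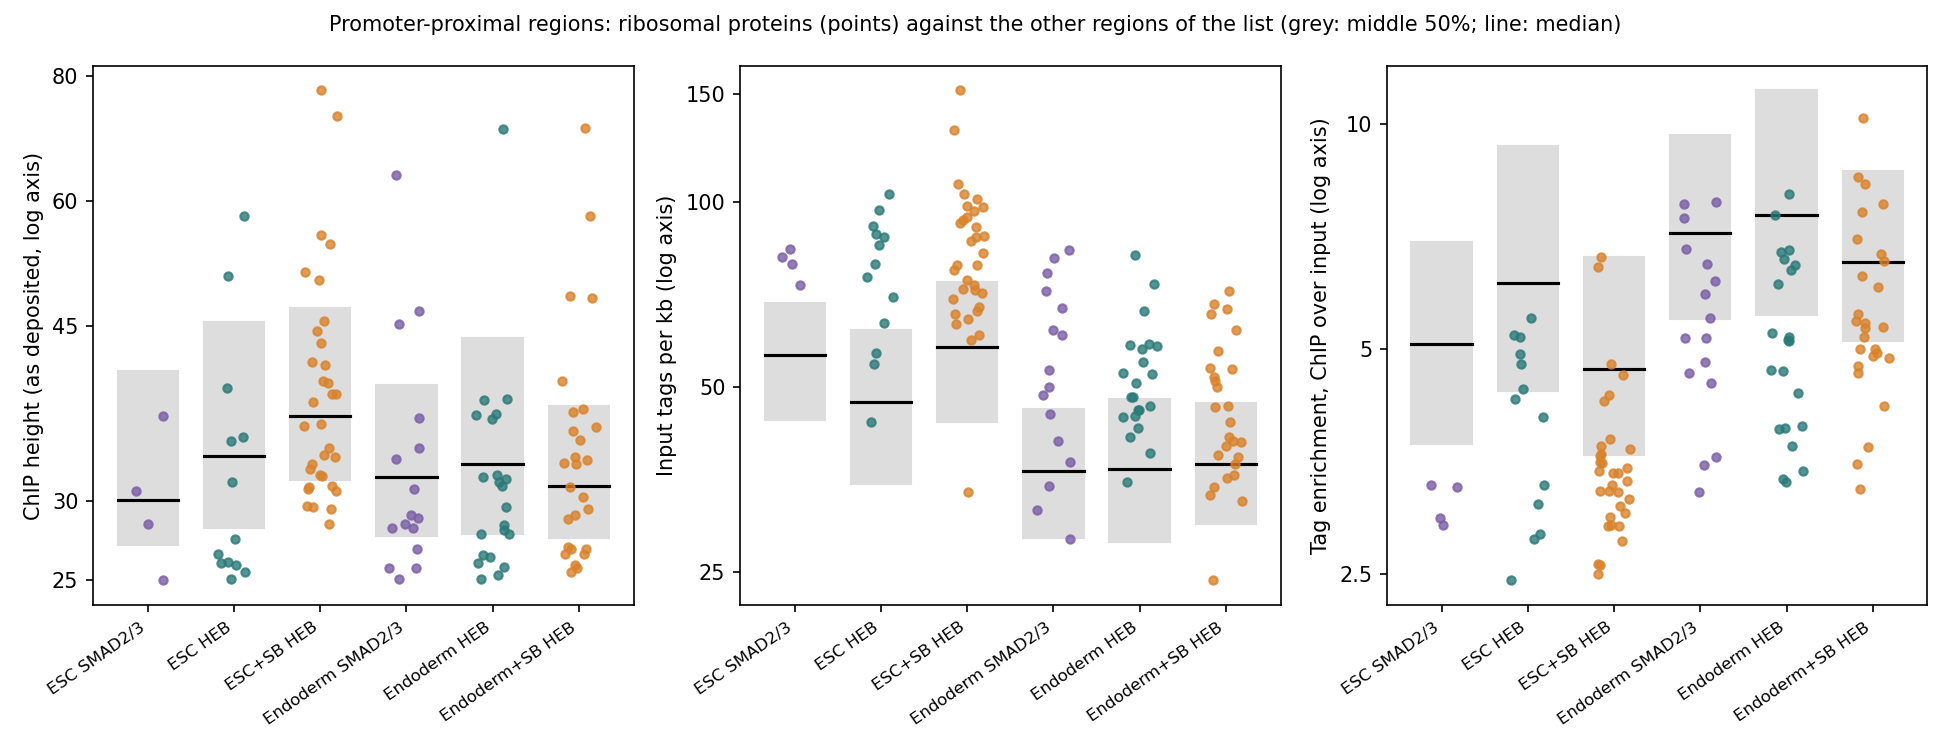
ChIP height, input tags per kb and tag enrichment, on log axes, of each member promoter region (points; purple SMAD2/3, teal HEB, orange HEB with SB) by region list, over grey boxes for the middle 50% of the other promoter regions of the same list with their median as a black line. Input tags lie above the black line for 4 of 4 to 21 of 27 members, and tag enrichment mostly below it.

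Mitochondrial ribosomal protein genes, which encode proteins of the ribosome of another compartment, had input tags per kb from 1.2 to 1.54 times those of the other promoter regions. For abundant housekeeping genes the ratio ran from 0.87 to 1.24. At the Nodal/activin targets it ran from 0.5 to 0.78, and their height ratio from 1.17 to 3.54. Lefty1, a Nodal antagonist, had a height of 445 with 65.8 input tags per kb in ESC SMAD2/3, where Rpl18, the highest member, had 36.5 with 83.9. Nodal itself had a height of 959 in Endoderm SMAD2/3, where Rpl18 had 63.7.

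The SB comparison in ESCs asked which regions are present when the receptor kinases are inhibited. Of the 19 members in ESC HEB, 14 (73.7%, interval 48.8 to 90.9%) overlapped a region of ESC+SB HEB, and 84.8% of all genes in ESC HEB did. Of the 35 in ESC+SB HEB, 14 (40.0%, 23.9 to 57.9%) overlapped a region of ESC HEB, beside 68.6% of all genes. The ESC+SB list therefore held 21 members with no overlapping region in ESC HEB, a larger share than over all genes. The 5 members of ESC HEB with no overlap were Rpl22 at 33.7, Rpl23 at 28.4, Rpl41 at 28.2, Rpl4 at 26.1 and Rpl37a at 25.3. For promoter regions the shares were 12 of 13 (92.3%, all genes 89.2%) and 12 of 33 (36.4%, all genes 54.6%).

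Among the highest of the 21 were Rpl8 at 50.0, Rpl10a at 44.4, Rps16 at 41.4 and Rps10 at 41.1. Rpl22 was at 37.7, Rps19 at 35.9, Rps27l at 33.9 and Rpl36al at 33.4. Rps19 encodes a small subunit protein that is mutated in Diamond-Blackfan anaemia. Heights of the 21 ran from 28.5 to 50.0 with a median of 33.2. The lowest height listed in ESC HEB, 25.0, multiplied by the median ratio of 1.23 at shared promoter regions of other genes, gives 30.8, and 4 of the 21 lay at or under it and 17 above. With the members' own ratio of 1.39 the value is 34.8, and 8 of the 21 lay above it.

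Where both ESC HEB lists held the promoter region, the height was greater with SB at 12 of 12 members. The median ratio was 1.39 (range 1.15 to 1.71), beside 1.23 (middle 50% 1.07 to 1.43) for 2690 shared promoter regions of other genes. The lowest height listed was 25.0 in ESC HEB and 28.0 in ESC+SB HEB. A region under 28.0 in ESC HEB could therefore be shared only if it was higher with SB. Rpl19, Rpl21, Rpl28, Rps21, Rpl3 and Rpl38, at 25.1 to 27.5 in ESC HEB, were such members. The 12 of 12 and the height ratios were thus partly fixed by the list cutoffs. Input tags per kb gave a median ratio of 1.35 at members and 1.14 at the others, and input was higher with SB at 8 of the 12. Among the members with the larger height ratios, input rose at Rpl3 (height ratio 1.71, input 85.0 to 91.1 per kb) and Rps21 (1.66, 63.6 to 88.1). Per kb, input was flat or lower at Rpl27 (1.61, 103 to 101), Rpl19 (1.57, 87.7 to 69.5) and Rpl36 (1.56, 88.6 to 64.6). Regions were wider with SB at 10 of the 12. Input height, which is not divided by width, was higher with SB at 12 of 12 members. Its median ratio was 1.41, beside 1.35 at the others. Input height went from 8.23 to 8.78 at Rpl27, 3.53 to 11.1 at Rpl19 and 3.28 to 5.55 at Rpl36. Input per kb also rose at members with smaller height ratios, such as Rpl28 (1.15, 56.8 to 92.6) and Rpl5 (1.33, 91.5 to 152). Tag enrichment gave 0.89 and 0.92. Rpl3 went from 26.6 to 45.5, Rps21 from 26.0 to 43.2, Rpl27 from 34.5 to 55.5, Rpl36 from 34.8 to 54.3 and Rpl18 from 50.5 to 73.0, the members with the largest ratio of ranks between the lists. Rpl19 went from 25.1 to 39.4. The summits lay a median of 11 bp apart at members and 11 bp at other genes.

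In the differentiating cells, the member regions of the lists with and without SB overlapped more often than those of other genes. Of the 24 members in Endoderm HEB, 21 (87.5%, interval 67.6 to 97.3%) overlapped a region of Endoderm+SB HEB, beside 46.1% of all genes. Of the 28 in Endoderm+SB HEB, 21 (75.0%, 55.1 to 89.3%) overlapped one of Endoderm HEB, beside 49.7% of all genes. For promoter regions the shares were 20 of 22 (90.9%, all genes 59.7%) and 20 of 27 (74.1%, all genes 44.3%).

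The 3 members of Endoderm HEB without an overlap were Rps15a at 57.6, Rps20 at 26.0 and Rps13 at 25.3. The 7 of Endoderm+SB HEB without one were Rpl3 at 30.3, Rps27l at 29.5, Rpl21 at 29.1, Rpl19 at 27.0, Rpl37 at 26.6, Rpl38 at 25.7 and Rps25 at 25.5. These 7 heights lay between 25.5 and 30.3, near the lowest height of 25.0 in both lists. By the same scaling as in ESCs, the other genes' ratio gives a floor of 25.0, which is also the lowest height of Endoderm+SB HEB. That all 7 lay above it was therefore fixed by the list cutoff. Of the 7, 3 lay above the 27.5 that the members' ratio gives. Heights at the 20 shared member promoter regions had a median ratio of 1.1 with SB over without (range 0.76 to 1.87, higher at 14), beside 1.0 for 1592 shared regions of other genes. Rps19 went from 25.8 to 48.2, Rpl9 from 38.0 to 58.0, Rpl22 from 27.8 to 39.6, Rpl5 from 36.6 to 48.0 and Rps10 from 28.1 to 36.9.

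**Figure D4:**
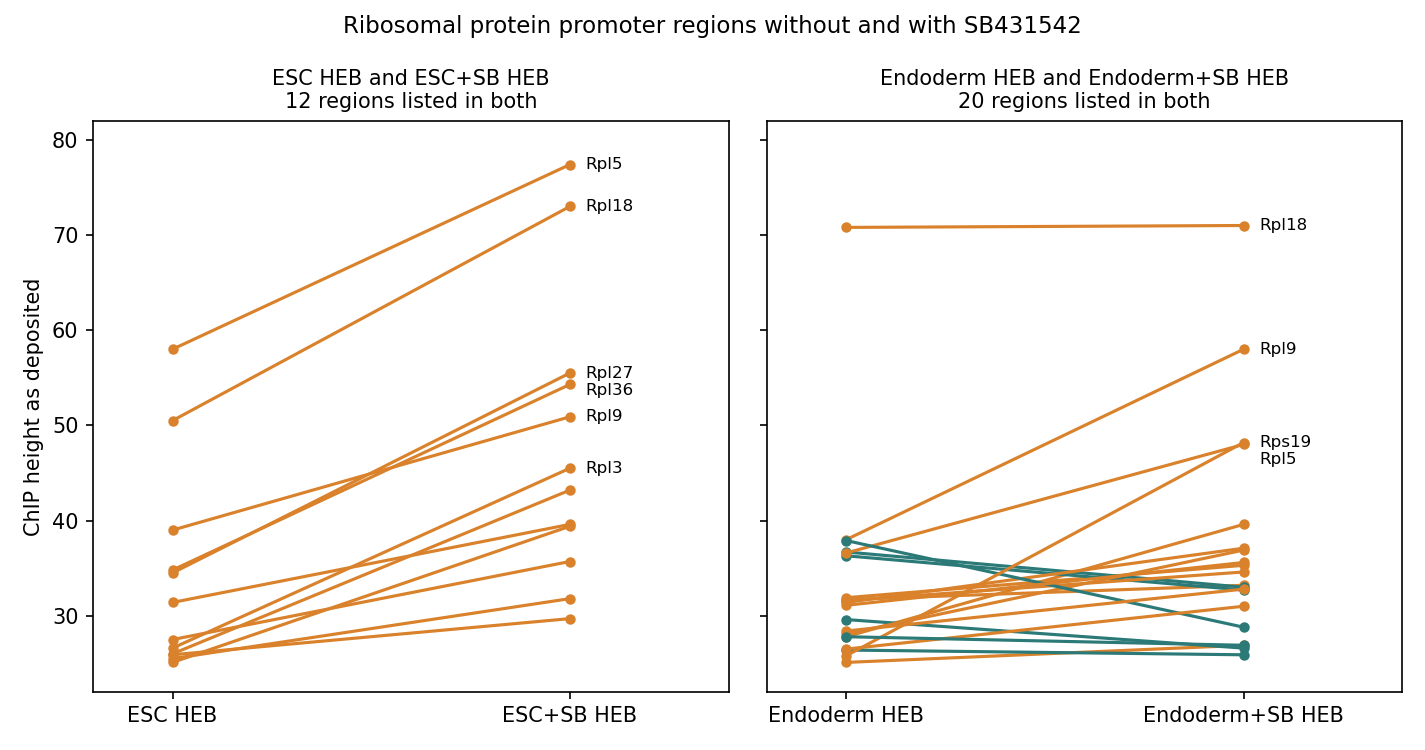
ChIP height of HEB at member promoter regions listed in both lists, without SB (left of each panel) and with SB (right), for ESCs and for differentiating cells; orange lines are higher with SB and teal lines lower. All 12 lines slope up in ESCs, from 1.15 to 1.71 times, and 14 of 20 do so in the differentiating cells. Regions under 28.0 in ESC HEB could be shared only by being higher with SB, because 28.0 was the lowest height in ESC+SB HEB.

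Between ESC and endoderm without SB, HEB regions at members overlapped at shares whose intervals held the share of all genes. Of the 19 members in ESC HEB, 9 (47.4%, interval 24.4 to 71.1%) overlapped a region of Endoderm HEB, beside 48.6% of all genes. Of the 24 in Endoderm HEB, 9 (37.5%, 18.8 to 59.4%) overlapped one of ESC HEB, beside 47.1%. The 8 shared promoter regions had a median height ratio of 1.07 (endoderm over ESC), beside 0.99 for 1553 regions of other genes. Rpl5 went from 58.0 in ESC HEB to 36.6 in Endoderm HEB, Rpl18 from 50.5 to 70.8 and Rps15 from 31.4 to 37.9. Rpl9, at 39.0 and 38.0, and Rpl28, at 25.9 and 29.6, differed less.

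Members with a promoter region in Endoderm HEB and no overlap in ESC HEB included Rpl13a at 31.9, Rpl10a at 31.7, Rpl8 at 31.4 and Rps16 at 31.1. In the other direction, Rpl38, Rpl3, Rpl4, Rpl21 and Rpl19 had promoter regions in ESC HEB alone of this pair, at 27.5, 26.6, 26.1, 25.5 and 25.1. All of these heights lay within 1.5 times of the lowest listed in both lists, 25.0.

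SMAD2/3 was listed at more members in endoderm than in ESCs, as it was over all genes. Of the 4 members in ESC SMAD2/3, 3 (75.0%, interval 19.4 to 99.4%) overlapped a region of Endoderm SMAD2/3, beside 55.1% of all genes, and Rpl15 was the exception with a height of 28.5. Of the 17 in Endoderm SMAD2/3, 3 (17.6%, 3.8 to 43.4%) overlapped one of ESC SMAD2/3, beside 17.5%. The shared members were Rpl18, Rpl9 and Rpl5. Their heights in ESC and endoderm were 36.5 and 63.7, 25.0 and 45.2, and 30.7 and 28.5. Of those without an overlap, Rpl37 at 46.5 and Rpl34 at 36.4 were the highest, followed by Rpl27 at 33.9 and Rpl22 at 33.1.

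With SB in both states, 24 of the 35 members in ESC+SB HEB (68.6%, interval 50.7 to 83.1%) overlapped a region of Endoderm+SB HEB, beside 41.8% of all genes. Of the 28 in Endoderm+SB HEB, 24 (85.7%, 67.3 to 96.0%) overlapped one of ESC+SB HEB, beside 54.0%. The exceptions included Rpl35a, Rpl41 and Rps25. The 11 in ESC+SB HEB without an overlap included Rpl36al at 33.4, Rpl12 at 32.7 and Rpl11 at 32.3. At the 24 shared promoter regions the height ratio (Endoderm+SB over ESC+SB) had a median of 0.83, beside 0.82 for 2082 regions of other genes, and 4 members were higher in Endoderm+SB. Rps19, at 35.9 and 48.2, Rpl9, at 50.9 and 58.0, Rpl13a, at 29.6 and 35.3, and Rpl22, at 37.7 and 39.6, were those members, and Rpl18 was at 73.0 and 71.0. Tag enrichment went the other way, with a median ratio of 1.49 (other genes 1.4) and 22 of the 24 higher in Endoderm+SB. Input tags per kb had a median ratio of 0.55 (other genes 0.61).

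In endoderm, SMAD2/3 and HEB can be set side by side, although the labels give 1 input library per cell state, so the lists share it and are not independent. Heights in Endoderm SMAD2/3 and Endoderm HEB were 63.7 and 70.8 at Rpl18, 45.2 and 38.0 at Rpl9, 28.5 and 36.6 at Rpl5 and 33.9 and 36.3 at Rpl27. They were 33.1 and 27.8 at Rpl22, 28.2 and 25.1 at Rpl23, 28.2 and 31.7 at Rpl10a, 28.9 and 27.8 at Rps3a and 29.1 and 26.0 at Rps20. Rps3a and Rps20 are small subunit genes and the others large subunit genes. Rpl37, at 46.5 in Endoderm SMAD2/3, had no region in Endoderm HEB and one of 26.6 in Endoderm+SB HEB.

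Some member promoter regions also held the 5′ end of another gene within 1000 bp. The counts were 3 of 4 (75.0%, other promoter regions 8.71%) in ESC SMAD2/3, 4 of 13 (30.8%, 6.58%) in ESC HEB, 11 of 33 (33.3%, 9.21%) in ESC+SB HEB, 3 of 16 (18.8%, 9.9%) in Endoderm SMAD2/3, 5 of 22 (22.7%, 8.48%) in Endoderm HEB and 7 of 27 (25.9%, 12.1%) in Endoderm+SB HEB. The partners were protein-coding genes such as Sphk2 beside Rpl18, Lias beside Rpl9, Nkiras1 beside Rpl15, Mgat2 beside Rpl36al, Iqcg beside Rpl35a, Trappc4 beside Rps25, Zwilch beside Rpl4 and Lrsam1 beside Rpl12. Others were small nucleolar RNAs within the member gene itself, such as Snora21 in Rpl23, Snord43 in Rpl3, Snord32a in Rpl13a and Snord68 in Rpl13, which guide modification of RNA and are processed from introns. A region at such a promoter cannot be assigned to 1 of the 2 genes from its position.

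Regions of members beyond 1000 bp of the 5′ end were few, and the highest member region of any list was among them. Rpl18 had one in Endoderm HEB 2754 bp from its 5′ end (mm9 chr7:52976195-52976810), with a height of 82.7 and a tag enrichment of 12. That region covered the 5′ end of another gene, Fam83e. Rps15a had one 11811 bp away in Endoderm HEB, with a height of 57.6 and a tag enrichment of 12.1, and one 11822 bp away in Endoderm SMAD2/3 with a height of 30.4.

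Rpl22 in ESC HEB had a height of 33.7 at 7142 bp and Rpl23 one of 28.4 at 4859 bp, and in the other lists that held these genes their regions covered the 5′ end. Rpl38 had a second region 4013 bp away in ESC HEB and 4005 bp away in ESC+SB HEB, with heights of 30.7 and 29.6. Rpl37a was listed once, 1433 bp away at 25.3. Rpl41 was listed at 1090, 1054 and 1079 bp in ESC HEB, Endoderm HEB and Endoderm+SB HEB, with heights of 28.2, 25.2 and 29.5. Each of these Rpl41 regions covered the 5′ end of another gene, Zc3h10.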

How the data were processed

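ChIP-seq region lists of 6 libraries were analysed, 1 list each. Per the submitters' processing notes, CASAVA 1.8.2 and build mm9 were used, and the sources used here do not name the aligner, peak caller or gene annotation. Per the file headers, the authors deposited counts of ChIP and input tags in each region, the ChIP and input height as a signal with no stated scaling, and the ratio of tags as an enrichment. The deposited column headed as a −log10 q-value, treated as a score, was not used because its values are too large for that scale. Coordinates are printed as deposited.

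Members, comparison lists and motifs were chosen with earlier results of these data known. Of 10730 gene names in the lists, 10640 (99.2%) matched the RefSeq GRCm38.p6 table, Rps3a through a synonym, and that table's 21900 protein-coding genes served as denominator for names only. A promoter region lay within 1000 bp of the authors' 5′ end, and regions overlapped at 1 bp or more. Named were, per list, the 5 members with the highest promoter region, those with the densest input, members of every list, those whose rank moved most between 2 lists, up to 10 listed in 1 list of a pair, and regions beyond 1000 bp. Input tags and ChIP tags were divided by region width. Python 3.11.15, pandas 2.3.3, numpy 2.4.6, scipy 1.17.1 and matplotlib 3.10.9 were used, and the counting steps were tested on simulated data. Some members are counted but not reported by name here.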

Additional observations from a re-analysis of the deposited data

Results flagged for a closer look

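Of 8 members with a promoter region in all 4 HEB lists, 4 had a HEB height that was greater with SB in ESCs and smaller with SB in the differentiating cells. The height with SB over without was 1.61 in ESCs and 0.9 in the differentiating cells at Rpl27, and 1.56 and 0.9 at Rpl36. It was 1.15 and 0.9 at Rpl28, and 1.26 and 0.76 at Rps15. Of 988 other genes with promoter regions in all 4 lists, 47.3% had the same directions, close to the 4 of 8 here. The median ratios at other shared promoter regions were 1.23 in ESCs (middle 50% 1.07 to 1.43) and 1.0 in the differentiating cells (0.83 to 1.18), so the 0.9 at Rpl27, Rpl36 and Rpl28 lay inside that spread and the 1.15 at Rpl28 below the ESC median. Rpl28, at 25.9 in ESC HEB, lay under 28.0, the lowest height listed in ESC+SB HEB. Its direction in ESCs was therefore fixed by the list cutoffs, as for any other gene under 28.0 in ESC HEB. Each group was 1 library, so the difference between ESCs and differentiating cells was not tested.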

How the results depend on the processing

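Among the recomputed values, 89 stayed within counting error or on the same side, 28 moved and 3 reversed. Keeping the upper 50% of regions by height, the shares of members with a region were 1.23% (ESC SMAD2/3), 4.94% (ESC HEB), 14.8% (ESC+SB HEB), 4.94% (Endoderm SMAD2/3), 2.47% (Endoderm HEB) and 12.3% (Endoderm+SB HEB), the shares of member regions within 1000 bp were 100% (Endoderm SMAD2/3), 33.3% (Endoderm HEB) and 100% (Endoderm+SB HEB), and median heights were 50.5 (ESC HEB), 50.0 (ESC+SB HEB), 45.9 (Endoderm SMAD2/3), 70.8 (Endoderm HEB) and 38.4 (Endoderm+SB HEB). With every list at the 4111 highest regions, the shares were 0.0% (ESC HEB), 2.47% (ESC+SB HEB), 3.7% (Endoderm SMAD2/3), 1.23% (Endoderm HEB) and 6.17% (Endoderm+SB HEB), where all genes had 6.56%, 7.27%, 8.33%, 6.27% and 7.92%. The overlap shares were then 0.0% for ESC+SB HEB in ESC HEB, 100% for Endoderm HEB in Endoderm+SB HEB, 20.0% for Endoderm+SB HEB in Endoderm HEB, 0.0% for Endoderm HEB in ESC HEB, 66.7% for Endoderm SMAD2/3 in ESC SMAD2/3, 100% for ESC+SB HEB in Endoderm+SB HEB and 40.0% for Endoderm+SB HEB in ESC+SB HEB. These alternatives keep fewer regions by construction. At 4111 regions, ESC+SB HEB kept 2 members, Endoderm SMAD2/3 3, Endoderm HEB 1 and Endoderm+SB HEB 5, so the overlap shares rest on those few genes. The upper 50% of Endoderm HEB held 1 member promoter region, which alone gives the median height of 70.8. ChIP tags per kb in place of height turned the ratio of members to other promoter regions to 1.01 (ESC HEB), 1.0 (ESC+SB HEB) and 1.06 (Endoderm SMAD2/3), and the cause was not tested. No paired analysis was possible because each group held 1 library, which also leaves no replicate to leave out. ESC HEB held no member at equal length and gave no overlap share. Scaling the lowest height by the members' own ratio, chosen after seeing the data, left 8 of 21 members (ESC+SB HEB) and 3 of 7 (Endoderm+SB HEB) above it, from 17 and 7. The starting 7 was fixed, because the height scaled by the other genes' ratio equalled the lowest listed in Endoderm+SB HEB.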
